A study of Mus musculus with 12 samples.

Results

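The genes described here are 10 genes of the Wnt pathway of the liver lobule, chosen by name: the ligands Wnt2 and Wnt9b, the R-spondin Rspo3, the Wnt carrier Wls, the Dickkopf family member Dkk3, and the targets Axin2, Lgr5, Tbx3, Glul and Znrf3. All 10 were measured in both deposited tables, as 10 of 16703 genes in whole liver and 10 of 16273 genes in liver sinusoidal endothelial cells (LSEC), the cells that line the liver's capillaries. The study sequenced RNA from C57BL/6 mice, from whole liver and from LSEC, after chow or a diet that induces nonalcoholic steatohepatitis (NASH). There were 3 libraries in each of the 4 groups: liver on chow, liver on NASH diet, LSEC on chow and LSEC on NASH diet. The NASH diet was D09100301, given for 36 weeks by a protocol that is attached to every sample, chow included. The age of the mice and the diet of the chow groups beyond that word were not given in the sources used here. LSEC had been enriched from non-parenchymal cells by depletion of CD11b+ cells and capture of CD146+ cells on magnetic beads. The labels do not say whether the libraries of a group came from separate animals, so the p-values measure only the spread between these libraries.

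Wnt proteins are lipid-modified signals that need the acyltransferase Porcn and the carrier Wls to leave the cell. At the receptor they stop the destruction complex from degrading beta-catenin, which then acts with TCF and LEF factors on target genes. R-spondins such as Rspo3 bind Lgr4 and Lgr5 and keep the ligases Znrf3 and Rnf43 from removing the receptors. In the liver, endothelial cells of the central vein are known as a source of Wnt2, Wnt9b and Rspo3, and the hepatocytes around that vein express the targets Axin2, Lgr5, Tbx3 and Glul.

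Promoter windows of 250 bases before to 50 bases after the start site were found in a RefSeq table (GRCm38.p6) for 5 of the 10 genes: Wnt2, Wnt9b, Wls, Axin2 and Glul. They are given for the pair of ligands whose liver signal fell together, so that their motif matches can be compared. Both are written 5′ to 3′ in the direction of the gene, on the minus strand. Capitals mark GATAA on the opposite strand, read here as TTATC, the core that GATA factors bind. This motif was searched after the sequences had been seen.
Wnt2, chr6:18030396-18030695: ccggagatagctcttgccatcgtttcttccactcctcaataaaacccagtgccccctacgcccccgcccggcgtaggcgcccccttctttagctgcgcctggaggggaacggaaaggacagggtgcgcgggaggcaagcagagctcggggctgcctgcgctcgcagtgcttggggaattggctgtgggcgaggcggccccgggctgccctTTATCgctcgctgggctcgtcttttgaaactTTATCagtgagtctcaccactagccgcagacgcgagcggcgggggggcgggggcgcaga
Wnt9b, chr11:103749772-103750071: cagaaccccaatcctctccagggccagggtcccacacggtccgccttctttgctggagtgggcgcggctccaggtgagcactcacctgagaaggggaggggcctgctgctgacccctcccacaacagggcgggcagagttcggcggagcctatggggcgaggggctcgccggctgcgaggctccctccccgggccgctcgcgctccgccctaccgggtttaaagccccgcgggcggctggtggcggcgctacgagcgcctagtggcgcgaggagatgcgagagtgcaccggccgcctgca
The Wnt2 window held TTATC 2 times, with first bases 40 and 9 bases before the start site, and the windows of the other 4 genes held neither GATAA nor TTATC. At least 1 match lay in 25.4% of 32851 RefSeq promoters of the same length, and 2 or more in 5.3%. The core of the TCF/LEF motif, CTTTGA or TCAAAG on either strand, lay in none of the 5 windows and in 16.0% of all promoters. These positions hold for the RefSeq start only. The Wnt2 gene as GENCODE M21 places it (chr6:17988940-18030585, minus strand) starts further upstream, so that 190 bases of the window and both matches lie inside it, at bases 101 and 132 of the gene, while the Wnt9b gene there starts at its RefSeq site (chr11:103727364-103749821, minus strand).

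Each liver library held 47000197 to 57397720 reads on genes, and each LSEC library 18527017 to 19402863. The pan-endothelial genes Pecam1 and Cdh5, which encode adhesion molecules of endothelial cells, were 48.9 and 50.2 times as high in LSEC as in liver on chow, in RPM, the reads of a gene per 1000000 reads of its library. Albumin, the main hepatocyte protein, was 52.3 times as high in liver as in LSEC. Hepatocyte RNA differed among the LSEC libraries: 9 hepatocyte markers summed to 755, 4221 and 373 RPM on chow and to 2215, 2852 and 4614 on NASH diet. Macrophage markers (10 of 10 measured) summed to 743 to 2089 RPM in LSEC on chow and 3752 to 4803 on NASH diet, and those of stellate cells and fibroblasts (10 of 10) to 738 to 1768 and 2404 to 4516. None of these markers was at 0 in every library.

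The first question was where the 10 genes were read. The signal genes were higher in the endothelial preparation: on chow, Wnt2 reached 159 to 187 RPM in LSEC against 5.96 to 7.41 in liver, Wnt9b 57.0 to 104 against 2.90 to 3.48, and Rspo3 123 to 179 against 9.48 to 10.7. Wls, at 192 to 230 against 8.68 to 10.7 RPM, and Dkk3, at 142 to 165 against 8.15 to 10.5, showed the same order. Mean LSEC levels were thus 25.0 times the liver level for Wnt2, 25.6 times for Wnt9b, 15.2 times for Rspo3, 21.4 times for Wls and 16.2 times for Dkk3, and no LSEC library overlapped a liver library. Lgr5, Tbx3 and Znrf3 were higher in liver on chow. Lgr5, a receptor for R-spondins, was at 7.08 to 8.69 RPM, Tbx3, a T-box repressor, at 33.5 to 35.9, and Znrf3, the ligase that removes Wnt receptors, at 12.4 to 16.5. In LSEC on chow the same genes were at 0 to 0.107, 0.0533 to 1.84 and 1.78 to 3.52 RPM.

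Axin2, a scaffold of the destruction complex and a widely used reporter of Wnt activity, was at 5.67 to 8.85 RPM in LSEC and 6.99 to 8.09 in liver on chow, and these ranges overlapped. Glul encodes glutamine synthetase, which in hepatocytes marks the innermost cells around the central vein. It was at 547 to 625 RPM in LSEC and 1368 to 1646 in liver on chow. Across the LSEC chow libraries Glul stayed within that range, while albumin ran from 294 to 3055 RPM. The part of hepatocyte RNA in the LSEC Glul values was not tested. These comparisons of level describe separately prepared and separately scaled libraries and carry no test.

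**Figure D1:**
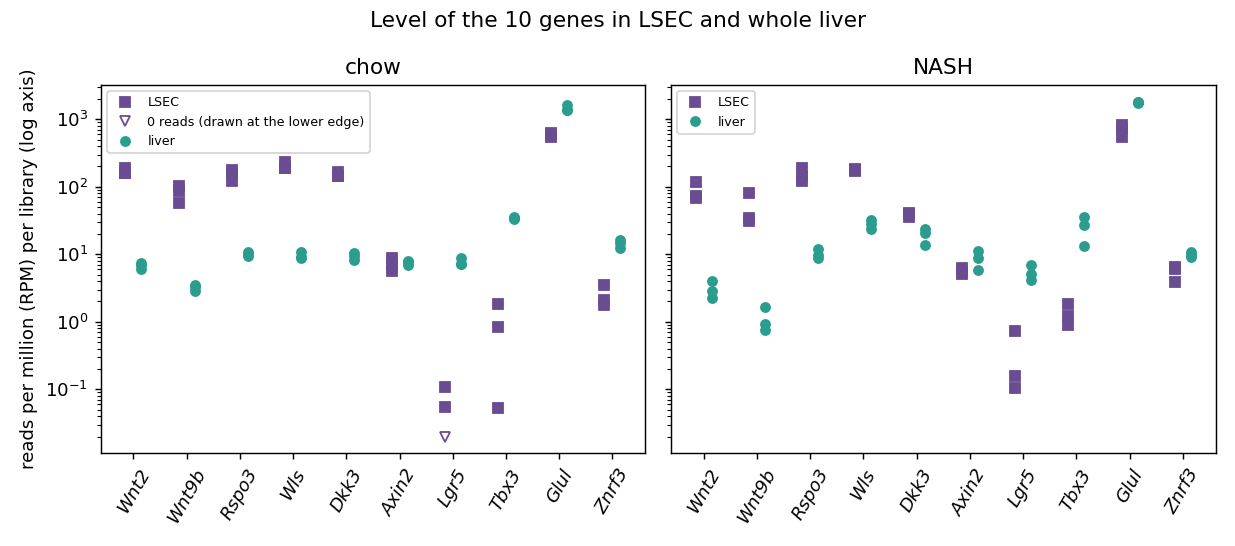
RPM (log axis) of the 10 genes in each library, with LSEC as squares and whole liver as circles, on chow (left) and NASH diet (right); an open triangle marks the library with 0 reads. Wnt2, Wnt9b, Rspo3, Wls and Dkk3 lie higher in LSEC, Lgr5, Tbx3, Glul and Znrf3 lie higher in liver, and Axin2 overlaps.

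Per kilobase of exon, the signal genes in LSEC on chow were ordered Wnt2 (75.0 ± 7.07 RPM per kilobase, SD, n = 3), Rspo3 (49.6 ± 9.23), Dkk3 (44.9 ± 3.68), Wls (23.3 ± 2.44) and Wnt9b (18.3 ± 5.30). Rspo3 and Dkk3 differed by less than the larger of their SDs, as did Wls and Wnt9b. On NASH diet the order was Rspo3 (48.7 ± 11.2), Wnt2 (38.6 ± 12.2), Wls (20.2 ± 0.516), Dkk3 (11.5 ± 0.718) and Wnt9b (10.8 ± 6.00). Dkk3 thus stood near Rspo3 on chow and near Wnt9b on NASH diet. Among 12 Wnt ligand genes in the LSEC table, Wnt2 made up 78.1% and Wnt9b 19.2% of the summed level per kilobase on chow, and 71.2% and 18.8% on NASH diet. The summed level of the 12 ligands was 93.01 to 99.4 RPM per kilobase on chow and 42.5 to 79.7 on NASH diet.

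In liver on chow, Glul stood far above the other 9 genes, at 441 ± 47.4 RPM per kilobase (SD, n = 3), followed by Tbx3 (5.25 ± 0.185), Rspo3 (3.26 ± 0.206), Wnt2 (2.995 ± 0.327) and Dkk3 (2.78 ± 0.346). Znrf3 (1.85 ± 0.257), Axin2 (1.37 ± 0.0998), Wls (1.09 ± 0.1204), Lgr5 (0.745 ± 0.0882) and Wnt9b (0.713 ± 0.0653) came below them. Rspo3 and Wnt2 differed by less than the larger of their SDs, as did Wnt2 and Dkk3, and Lgr5 and Wnt9b. Wnt2 formed 31.5% of the summed ligand level per kilobase in liver on chow and 15.6% on NASH diet, and Wnt9b 7.46% and 2.78%. The share of Wnt4, a ligand known from kidney and ovary development, went from 5.47% to 24.2%, and that of Wnt5b from 51.0% to 44.0%.

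In LSEC, the NASH diet was accompanied by lower Wnt2 and Dkk3, while the other 8 genes were not called. The test was limma on log2(normalized reads + 1), fitted over all genes of the table, and a gene was called at a Benjamini-Hochberg adjusted p under 0.05. By this rule 2 of the 10 genes were called, both lower, where 8.11% of all genes were called, 2.86% as lower and 5.24% as higher. Fold changes below are on the log2(normalized reads + 1) scale, as NASH over chow, with the standard error (SE).

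Wnt2 had 3155, 3199 and 3690.2 normalized reads in LSEC on chow and 1328, 2116 and 1243 on NASH diet. Every NASH library lay below every chow library. The log2 fold change was -1.14 (SE 0.21, 95% interval -1.63 to -0.65, limma adjusted p = 0.0256), so that the chow mean was 2.20 times the NASH mean on this scale. The call was lost when the third chow library, the first NASH library or the third NASH library was left out, with adjusted p = 0.0935, 0.0805 and 0.0955 and log2 fold changes of -1.07, -1.04 and -0.99. It was also lost when each library was set against 10 general endothelial genes, at -0.67 (adjusted p = 0.0753), and in a fit without a trend in the variance (adjusted p = 0.0589).

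Dkk3 encodes a secreted member of the Dickkopf family whose effect on Wnt receptors, unlike that of its relatives, is disputed. It had 2840.4, 2870.1 and 3249 normalized reads on chow and 731, 711 and 649 on NASH diet. The groups lay far apart, with little spread within either. The log2 fold change was -2.10 (SE 0.11, 95% interval -2.37 to -1.83, limma adjusted p = 0.00237), a level 4.28 times higher on chow. It stayed called under each of the 15 alternatives, with adjusted p of at most 0.0214 and log2 fold changes of -2.13 to -1.63.

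Wnt9b had 1688, 2105 and 1122 normalized reads on chow and 563, 1423 and 628 on NASH diet in LSEC. The second NASH library lay inside the chow range. Its log2 fold change of -0.99 (SE 0.38, 95% interval -1.89 to -0.09) was close in size to that of Wnt2, but its spread was wider and its limma adjusted p was 0.157. In each diet group the second library was the highest for both Wnt9b and Rspo3.

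Rspo3 had 3088, 3615 and 2419 normalized reads on chow and 2531, 3374 and 2215 on NASH diet, with groups that overlapped and a log2 fold change of -0.17 (SE 0.21, 95% interval -0.65 to 0.31, limma adjusted p = 0.646). Wls had 3771, 3881 and 4523 normalized reads on chow and 3239, 3073 and 3268 on NASH diet. Its groups did not overlap, and the log2 fold change of -0.34 (SE 0.11, 95% interval -0.61 to -0.07) had a limma adjusted p of 0.114. Against the general endothelial genes the values for Rspo3 and Wls turned positive, at 0.29 and 0.12, and neither was called.

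**Figure D2:**
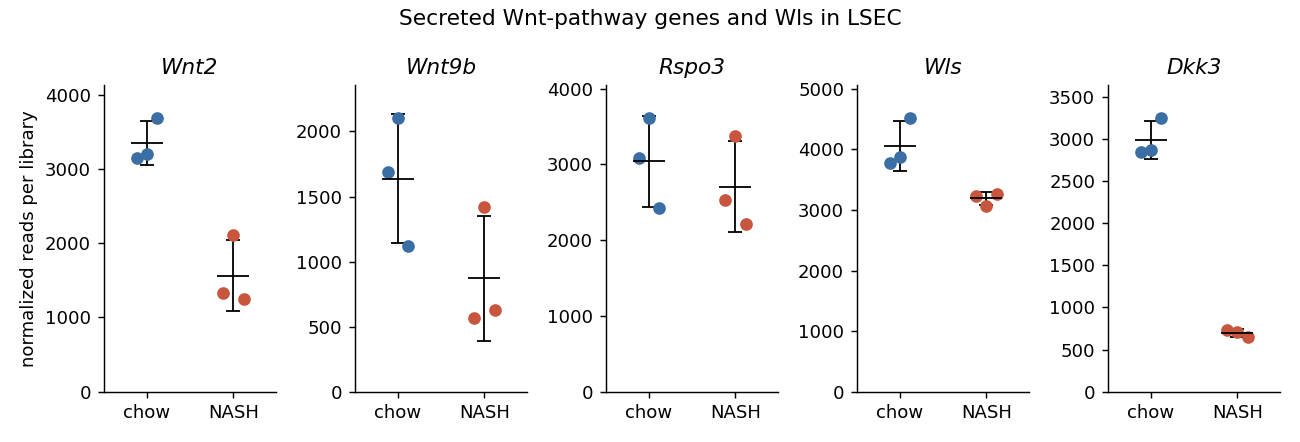
Normalized reads per LSEC library for Wnt2, Wnt9b, Rspo3, Wls and Dkk3 on chow and NASH diet; points are libraries, the wide mark is the mean and the bars are ± 1 SD (n = 3). Dkk3 shows the widest gap between diets (649 to 731 against 2840.4 to 3249), Wnt2 and Wls do not overlap, and Wnt9b and Rspo3 do.

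The 5 targets were not called in LSEC. Axin2 had 173, 147 and 112 normalized reads on chow and 103, 92.4 and 112 on NASH diet (log2 fold change -0.47, SE 0.24, limma adjusted p = 0.262). The lowest chow library and the highest NASH library were nearly level. Glul had 12251, 11975 and 10769.6 normalized reads on chow and 9787, 14510 and 12771 on NASH diet, with full overlap and a log2 fold change of 0.07 (SE 0.17, 95% interval -0.33 to 0.46, limma adjusted p = 0.841).

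Znrf3 had 69.0, 35.9 and 42.0 normalized reads in LSEC on chow and 70.5, 116 and 110 on NASH diet, a log2 fold change of 1.02 (SE 0.35, limma adjusted p = 0.118). The lowest NASH library was just above the highest chow library. Tbx3 was read by 1 to 34 reads per LSEC library on chow and 17 to 36 on NASH diet. Lgr5 was read by 2, 1 and 0 reads on chow, where 0 reads allow up to 0.156 RPM, and by 3, 2 and 14 on NASH diet, so neither a fold in LSEC nor a difference from liver is given for it. The NASH library with 14 Lgr5 reads, the third, was also the one with the highest hepatocyte marker sum, 4614 RPM, and the part of hepatocyte RNA in these values was not tested.

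Other Wnt-pathway genes of LSEC were read through fixed lists. Over all LSEC genes 5.24% rose and 2.86% fell. Of 12 measured Wnt ligands, 1 rose and 1 fell in LSEC, with a median log2 fold change of 0.19 against 0.00 over all genes. The riser was Wnt5a, a ligand of the beta-catenin-independent branch, at 6.27 to 23.9 normalized reads on chow and 60.9 to 96.1 on NASH diet (log2 fold change 2.25, SE 0.53, limma adjusted p = 0.0468). Neither measured R-spondin was called, and of the 2 secretion genes Porcn fell, from 345, 449 and 414 normalized reads to 206, 208 and 192 (-0.99, SE 0.16, adjusted p = 0.0196). Relative to general endothelial genes Porcn was -0.52 (adjusted p = 0.0857).

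Of 14 measured genes in a list of Wnt antagonists, 2 fell and 2 rose in LSEC, with a median of -0.42. Over all genes 2.86% fell and 5.24% rose. The list counts Dkk3, although its effect on Wnt receptors is disputed, and so partly repeats its value. Beside Dkk3, Sost, an inhibitor of Lrp5 and Lrp6 best known from bone, fell from 22.5 to 29.3 normalized reads to 0.93 to 3.87 (log2 fold change -3.18, SE 0.47, limma adjusted p = 0.0142). Frzb, a secreted decoy receptor for Wnts, rose from 70.7 to 177 normalized reads to 408 to 700.5 (2.39, SE 0.38, adjusted p = 0.0171), and Dkk2 rose from 1.02 to 4.35 to 11.6 to 77.2 (3.69, SE 0.76, adjusted p = 0.0344). Stellate cell and fibroblast markers were higher in the same NASH libraries, with 4 of 10 called higher and none lower, and their part in the Frzb, Dkk2 and Wnt5a values was not tested.

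The list of Wnt and R-spondin receptors also counts the ligases Znrf3 and Rnf43. Of its 19 measured genes, 3 rose in LSEC and none fell (median 0.64). Over all genes 5.24% rose and 2.86% fell. The risers were the Frizzled genes Fzd1 (log2 fold change 0.71) and Fzd7 (0.97) and the Wnt5a receptor Ror1 (2.11). Nkd1, a feedback inhibitor that binds Dishevelled and is induced by Wnt signalling in many tissues, was the 1 of 10 general Wnt targets that was called in LSEC. It fell from 2337, 3044 and 2598 normalized reads to 1187, 1266 and 880.3 (-1.27, SE 0.17, limma adjusted p = 0.0118). Fzd1, Fzd7, Ror1, Nkd1 and Dkk2 were named after their values had been seen. In the liver table Nkd1 went from 502 ± 61.7 to 399 ± 81.0 normalized reads (SD, n = 3), at -0.35, with an unadjusted limma p of 0.0705, and was not called. It was 0.07 there after total-read scaling (adjusted p = 0.767) and 0.48 relative to hepatocyte genes (adjusted p = 0.0572).

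The endothelial lists were read in LSEC as well, where 5.24% of all genes rose and 2.86% fell under the deposited scaling. Of 7 genes of central vein and pericentral endothelium, 3 fell and none rose (median -0.99): Dkk3, Wnt2 and Kit, the receptor of stem cell factor, which went from 11084, 13350 and 8972 normalized reads to 4540, 5280 and 5376 (-1.12, SE 0.17, limma adjusted p = 0.0154). The central vein list holds Wnt2, Wnt9b, Rspo3 and Dkk3 themselves, and its median is the Wnt9b value, so it largely repeats the signal genes. None of 6 genes of periportal and arterial endothelium was called (median -0.17). Of 11 sinusoidal markers 5 fell and 1 rose (median -0.69), among them the secreted nuclease Dnase1l3 (-1.28), the transcription factor Gata4 (-0.68) and the hyaluronan receptor Lyve1 (1.40). Gata4 had 12439, 15015 and 15181 normalized reads on chow and 8798, 9279 and 8519 on NASH diet (SE 0.13, adjusted p = 0.0278). After total-read scaling 3 sinusoidal markers fell and 1 rose (1.68% and 7.15% of all genes). With edgeR and its TMM scaling 8 fell and 1 rose (2.60% and 4.56% of all genes). Relative to general endothelial genes 1 of the 11 sinusoidal markers fell and 1 rose (median -0.22), where 0.848% of all genes were called lower and 25.0% higher, and Gata4 was -0.21 (adjusted p = 0.330). Of 10 general endothelial markers 1, Eng, fell, and their median was -0.45; they summed to 17556 to 22547 RPM on chow and 13656 to 16680 on NASH diet. With single libraries left out, the adjusted p reached 0.152 for Wnt5a, 0.0858 for Porcn, 0.0609 for Sost, 0.0680 for Frzb, 0.121 for Dkk2, 0.0616 for Kit, 0.0540 for Nkd1, 0.113 for Gata4, 0.0666 for Dnase1l3, 0.0709 for Lyve1 and 0.151 for Eng, always with the same sign. For Fzd1, Fzd7 and Ror1 it reached 0.149, 0.106 and 0.147. The library whose loss gave the highest adjusted p was NASH library 3 for all of these but Frzb (NASH library 2) and Nkd1 (chow library 3), as it was for the number of all genes called, which went from 1319 to 124 without it.

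In whole liver, 8 of the 10 genes were called: Wnt2, Wnt9b, Rspo3, Lgr5, Tbx3 and Znrf3 as lower on NASH diet, and Wls and Dkk3 as higher. The background in this tissue was high, with 46.0% of all genes called, 21.0% as lower and 25.0% as higher. In bulk RNA a lower level of a gene can come from fewer cells of a type or from less RNA per cell, and these cannot be told apart here. The deposited scaling also matters: with total reads as the divisor, the median over all genes went from a log2 fold change of 0.02 to 0.43, with 47.2% of all genes called higher and 5.41% lower. Values that change sign or call under it are given beside each gene.

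Wnt2 had 454, 369 and 404 normalized reads in liver on chow and 133, 193 and 97.3 on NASH diet. No NASH library came near the lowest chow library. The log2 fold change was -1.58 (SE 0.23, 95% interval -2.10 to -1.06, limma adjusted p = 0.000525). Wnt9b had 213.5, 203 and 170.2 normalized reads on chow and 78.0, 44.2 and 32.2 on NASH diet, again without overlap, and a log2 fold change of -1.99 (SE 0.30, 95% interval -2.67 to -1.31, limma adjusted p = 0.000638). Both calls held under total-read scaling, at -1.17 and -1.58, and relative to 10 general endothelial genes, at -1.27 and -1.69. Relative to 9 hepatocyte genes they were -0.75 and -1.17, with adjusted p = 0.0107 and 0.00274.

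Rspo3 had 658, 587 and 584.5 normalized reads in liver on chow and 415, 463.5 and 516 on NASH diet, with no overlap (log2 fold change -0.39, SE 0.12, limma adjusted p = 0.0250). It was 0.02 after total-read scaling (adjusted p = 0.913), -0.09 relative to endothelial genes (adjusted p = 0.671) and 0.43 relative to hepatocyte genes (adjusted p = 0.0480). The call was also lost without chow library 1 or 2 or NASH library 1 or 2, at adjusted p of 0.0533 to 0.0991.

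Wls had 568, 537 and 630 normalized reads in liver on chow and 1286, 1126 and 1395 on NASH diet, so that every NASH library exceeded every chow library by a wide margin. The log2 fold change was 1.13 (SE 0.11, 95% interval 0.87 to 1.39, limma adjusted p = 6.6e-05), a mean 2.19 times higher. Dkk3 had 642, 582 and 478 normalized reads on chow and 956, 653 and 1018 on NASH diet. Its second NASH library was only just above its highest chow library. The log2 fold change was 0.61 (SE 0.18, limma adjusted p = 0.0191), and the call was lost without chow library 3, NASH library 1 or NASH library 3, at adjusted p = 0.0593, 0.0872 and 0.0876, and in a fit without a trend in the variance (adjusted p = 0.0688).

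Beside the rise of Wls and Dkk3 in liver, markers of other cell types were higher in the same libraries, where 25.0% of all genes were called higher. Stellate cell and fibroblast markers summed to 397 to 479 RPM on chow and 1313 to 2026 on NASH diet, with 7 of 10 called higher. Macrophage markers summed to 731 to 1123 and 1959 to 3368 (8 of 10 called higher), and cholangiocyte markers to 36.9 to 48.7 and 383 to 831 (6 of 6 called higher). General endothelial markers summed to 437 to 505 on chow and 466 to 487 on NASH diet. The part of these cells in the liver values was not tested.

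**Figure D3:**
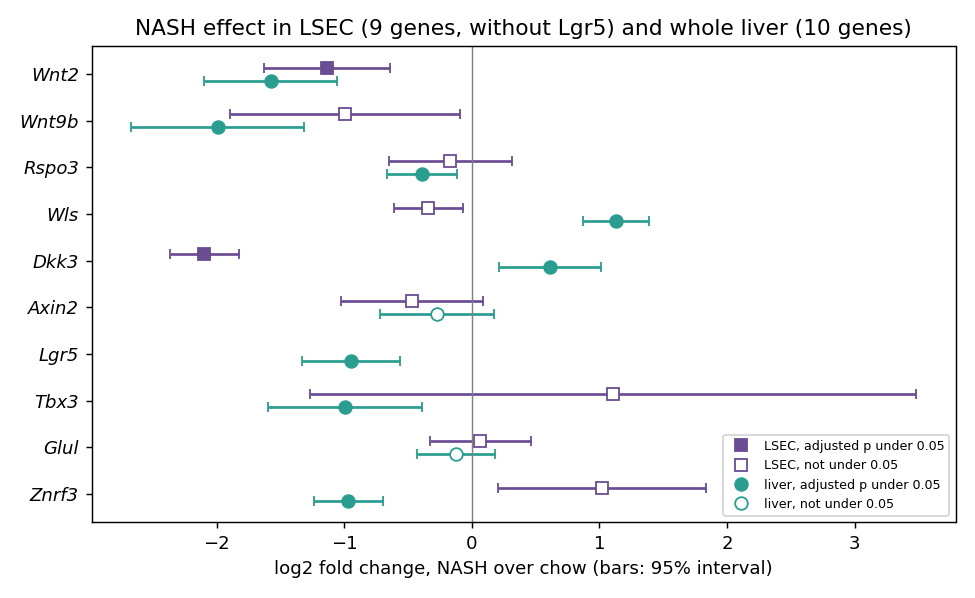
Log2 fold change of NASH over chow with 95% intervals, for the 10 genes in whole liver (circles) and for 9 of them in LSEC (squares; Lgr5, with 0 to 14 reads per LSEC library, is not drawn there); filled marks have a limma adjusted p under 0.05. Wls and Dkk3 lie to the left of 0 in LSEC and to the right in liver, and Wnt2 and Wnt9b lie to the left in both.

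Among the targets in liver, Lgr5 had 434, 443.5 and 509.7 normalized reads on chow and 192, 238 and 296 on NASH diet. All NASH libraries lay below the chow range. The log2 fold change was -0.95 (SE 0.17, 95% interval -1.34 to -0.57, limma adjusted p = 0.00167), and -0.53 after total-read scaling (adjusted p = 0.0464). Znrf3 had 913.5, 770.4 and 966 normalized reads on chow and 418.5, 463.5 and 466 on NASH diet, again apart, with a log2 fold change of -0.97 (SE 0.12, 95% interval -1.24 to -0.70, limma adjusted p = 0.000196). It was -0.55 after total-read scaling (adjusted p = 0.00825).

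Tbx3 had 2050.1, 2168 and 2104 normalized reads on chow, a narrow band, and 613, 1273 and 1519 on NASH diet, a wide one. The groups did not overlap, and the log2 fold change was -0.99 (SE 0.27, limma adjusted p = 0.0136). After total-read scaling it was -0.58 (adjusted p = 0.117), and without a trend in the variance the same log2 value had an adjusted p of 0.0685.

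The 2 best-known targets were not called. Axin2 had 496, 469 and 410.2 normalized reads on chow and 271, 412 and 481 on NASH diet, with overlap and a log2 fold change of -0.28 (SE 0.20, 95% interval -0.72 to 0.17, limma adjusted p = 0.285). Glul had 100897, 85386 and 80273 normalized reads on chow and 79852, 85827 and 77932 on NASH diet. Its groups overlapped, and the log2 fold change was -0.12 (SE 0.14, 95% interval -0.43 to 0.18, limma adjusted p = 0.486). Both changed sign under the other references: Axin2 was 0.14, 0.03 and 0.55 with total reads, endothelial genes and hepatocyte genes, and Glul was 0.29 (adjusted p = 0.0390), 0.18 (0.357) and 0.70 (0.000195).

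**Figure D4:**
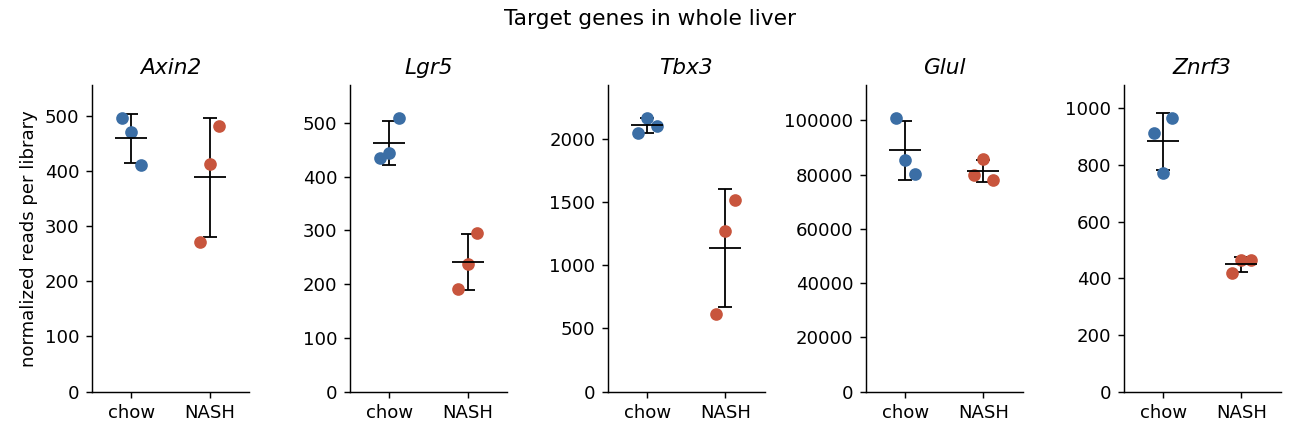
Normalized reads per whole-liver library for Axin2, Lgr5, Tbx3, Glul and Znrf3 on chow and NASH diet; points are libraries, the wide mark is the mean and the bars are ± 1 SD (n = 3). Lgr5, Tbx3 and Znrf3 do not overlap between diets, and Axin2 and Glul do.

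Relative to the mean log2 of 9 hepatocyte genes, the values for Lgr5, Tbx3 and Znrf3 in liver were -0.12 (limma adjusted p = 0.634), -0.17 (0.601) and -0.14 (0.471). The hepatocyte genes themselves had a median log2 fold change of -0.80, with 5 of 9 called lower, and summed to 99335 to 106918 RPM on chow and 69676 to 74270 on NASH diet. Against this reference 4 of the 10 genes were called higher (Rspo3, Wls, Dkk3 and Glul) and 2 lower (Wnt2 and Wnt9b). The median of all genes then moved to 0.85, and 76.2% of all genes were called higher and 2.04% lower.

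**Figure D5:**
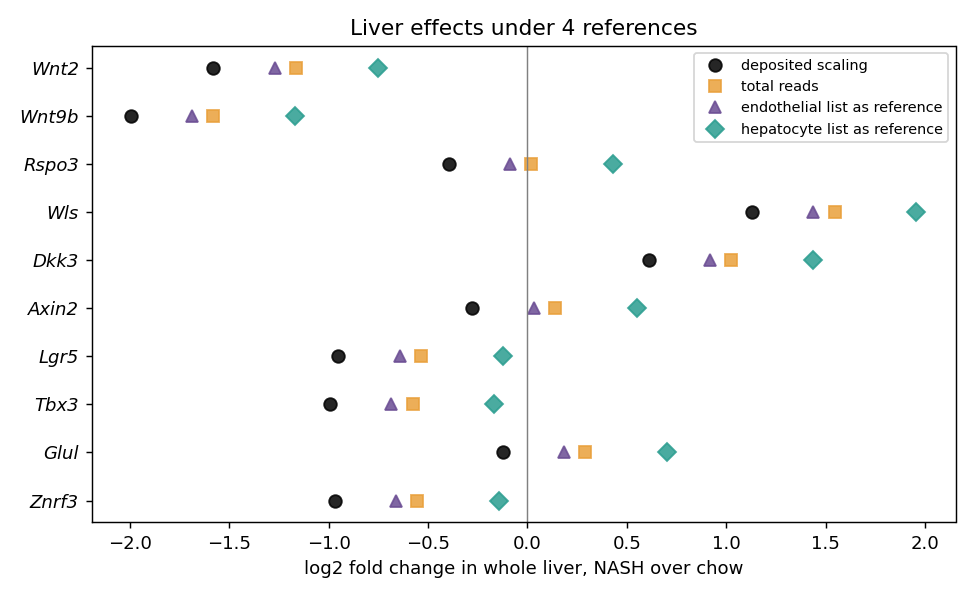
Log2 fold change of NASH over chow in whole liver for the 10 genes under 4 references: the deposited scaling, total reads, 10 general endothelial genes and 9 hepatocyte genes. Wnt2 and Wnt9b stay left of 0 and Wls and Dkk3 right of 0 under all 4, while Rspo3, Axin2 and Glul cross 0.

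Fixed lists of the pathway were also read in liver, where 21.0% of all genes fell and 25.0% rose under the deposited scaling. Of 10 general Wnt targets, 6 fell and none rose under the deposited scaling (median log2 fold change -0.81 against 0.02 over all genes), and 3 fell and none rose after total-read scaling, where 5.41% of all genes fell and 47.2% rose. The 6 were Lgr5, Tbx3, Znrf3, Rnf43, the transcription factor Lef1 and Notum, an enzyme that removes the lipid from Wnts. Lgr5, Tbx3 and Znrf3 are targets already described above, so the count partly repeats their values. Notum went from 2477, 2426 and 2246 normalized reads to 1260.2, 1085 and 1396 (-0.94, SE 0.11, limma adjusted p = 0.000121). Relative to hepatocyte genes Notum was -0.11 (adjusted p = 0.506), and 1 of the 10 targets rose and none fell. Rnf43 and Lef1 lost their calls after total-read scaling (-0.27 and -0.69, adjusted p = 0.354 and 0.161), and without chow library 1, among others (adjusted p = 0.0568 and 0.163).

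The receptor list also counts the ligases Znrf3 and Rnf43. Of its 19 genes in liver, 5 rose and 6 fell (median -0.01). Over all genes 25.0% rose and 21.0% fell. After total-read scaling 8 of the 19 rose and 2 fell, so that the share that rose was near the 47.2% of all genes. The 2 that fell there were Lgr5 and Znrf3, already described above, where 5.41% of all genes fell. Fzd1, a Frizzled receptor, rose from 441, 513 and 503.5 normalized reads to 789, 844.5 and 1068 (0.88, SE 0.14, limma adjusted p = 0.000664). Of 18 genes of the destruction complex and TCF factors, 2 rose and 7 fell (median -0.26), against 25.0% and 21.0% of all genes. After total-read scaling 4 rose and 0 fell (47.2% and 5.41% of all genes). Bcl9, a beta-catenin co-activator, rose (0.66, adjusted p = 0.00258), as did Pygo1 from 0 to 2.37 normalized reads to 11.3 to 20.2, and Dvl3, a Dishevelled protein that relays the receptor's signal, fell (-0.70, adjusted p = 0.00331). Dvl3 was -0.28 after total-read scaling (adjusted p = 0.147) and 0.13 relative to hepatocyte genes (adjusted p = 0.520).

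Of 12 Wnt ligands in liver, 7 rose and 2 fell after total-read scaling, where 47.2% of all genes rose and 5.41% fell. Under the deposited scaling 6 rose and 3 fell (median 1.09), where 25.0% of all genes rose and 21.0% fell. Wnt2, Wnt9b and Wnt5b fell, and among the risers, named after their values had been seen, were Wnt4 (89.0, 124 and 169 normalized reads to 328, 325 and 591; log2 fold change 1.68), Wnt5a (1.47) and Wnt7b (1.19 to 4.10 normalized reads to 19.1 to 45.9; 3.38). Wnt5b was -0.30 after total-read scaling (adjusted p = 0.2485) and 0.11 relative to hepatocyte genes (adjusted p = 0.621). It lost its call in 4 of 6 fits with a library left out (adjusted p of up to 0.0823). Of 13 antagonists measured in liver, 3 rose and 1 fell, with Frzb at 2.10 (limma adjusted p = 1.05e-05). Dkk3, already described above, was 1 of the 3, and the share that rose was near the 25.0% of all genes. After total-read scaling 6 antagonists rose and 1 fell (47.2% and 5.41% of all genes).

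Of the 7 genes of the central vein list, 5 fell in liver and 1, Dkk3, rose (median -1.05), where 21.0% of all genes fell and 25.0% rose. Beside Wnt2, Wnt9b and Rspo3 the fallers were Kit (-1.05) and the cadherin Cdh13 (-1.30). Relative to general endothelial genes Kit and Cdh13 stayed called, at -0.74 and -0.99 (limma adjusted p = 0.00241 and 0.00529). Relative to hepatocyte genes they were -0.22 and -0.47 (adjusted p = 0.299 and 0.106). Under that hepatocyte reference 2 genes of the list fell and 3 rose (2.04% and 76.2% of all genes). Of 6 genes of periportal and arterial endothelium 5 rose and none fell (median 0.60), with the gap junction gene Gja5 at 1.13 and the ephrin Efnb2 at 0.79. After total-read scaling 5 rose and none fell, where 47.2% of all genes rose. Relative to hepatocyte genes all 6 rose, where 76.2% of all genes did. Kit, Cdh13, Gja5 and Efnb2 were named after their values had been seen. In LSEC none of these 6 periportal and arterial genes was called.

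Pericentral hepatocyte genes fell more often than they rose: 15 of 24 fell and 3 rose (median -0.97), where 21.0% of all genes fell and 25.0% rose. After total-read scaling 11 fell and 6 rose (5.41% and 47.2% of all genes). Relative to hepatocyte genes 9 fell and 7 rose (median -0.14 against 0.85 over all genes, of which 2.04% fell and 76.2% rose). The pericentral list holds Lgr5, Tbx3 and Glul, so these counts partly repeat values given above. The cytochromes P450 Cyp2c54 (17730 to 20349 normalized reads on chow, 1925 to 2370 on NASH diet) and Cyp2c37 fell (log2 fold change -3.16 and -3.14), and the dicarboxylate transporter Slc13a3 rose (2.34). Periportal hepatocyte genes fell too: 13 of 18 fell and 1 rose (median -1.55), or 12 and 3 after total-read scaling and 10 and 5 relative to hepatocyte genes (median -0.72). The smallest adjusted p in this list belonged to Etnppl, an ethanolamine-phosphate phospho-lyase (-3.66), Asl, an enzyme of the urea cycle (-2.93), and Pck1, the key enzyme of gluconeogenesis (-2.09). The medians of -1.55 in the periportal and -0.97 in the pericentral list were not tested against each other.

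The NASH effects of the 10 genes were then compared between tissues, as the log2 fold change in liver minus that in LSEC, tested per gene over 15766 genes in both tables. Of the 10 genes 3 differed, where 11.0% of all genes did, 6.59% as higher in liver and 4.38% as lower. Dkk3 fell in LSEC and rose in liver, a difference of 2.71 (SE 0.21, 95% interval 2.21 to 3.21, adjusted p = 0.00445 from the 2 limma fits). Wls rose in liver and had a log2 fold change of -0.34 in LSEC, a difference of 1.47 (SE 0.16, adjusted p = 0.00755). Znrf3 fell in liver and was at 1.02 in LSEC, a difference of -1.99 (SE 0.37, adjusted p = 0.0208), which was lost without LSEC chow library 3, NASH library 2 or NASH library 3 (adjusted p = 0.0682, 0.0643 and 0.0740).

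The differences for Wnt2 (-0.44, 95% interval -1.18 to 0.29), Wnt9b (-0.9997, -2.15 to 0.15) and Rspo3 (-0.22, -0.79 to 0.34) did not pass the test, nor did those for Axin2 (0.19), Glul (-0.19) and Tbx3 (-2.10). The LSEC level of Dkk3 was 16.2 times the liver level on chow and 1.996 times on NASH diet, and that of Wls 21.4 and 6.33 times. For Wnt2 the ratio was 25.0 and 28.3, for Wnt9b 25.6 and 43.3, and for Rspo3 15.2 and 14.7.

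Genes with the most similar pattern over the 6 libraries of a table were found by Pearson's r of log2(normalized reads + 1), among genes averaging 50 or more normalized reads, and are given as a description of 6 points that share 2 diet groups. For Wnt2 in LSEC they were Cox15 (r = 0.996), 1300002E11Rik (0.995) and Arhgdib (0.993), with 157 of 11829 genes above 0.95. For Dkk3 in LSEC they were Slc35a4 (0.999), the endothelial co-receptor Eng (0.999) and Ltc4s (0.998), with 348 genes above 0.95. Of these, Eng (log2 fold change -0.68) and Ltc4s (-2.37), the synthase of leukotriene C4, fell in LSEC. For Glul in liver they were Zfp882 (0.993), Pef1 (0.988) and Kif1bp (0.983), with 11 of 12419 genes above 0.95, and for Lgr5 in liver Picalm (0.998), Tbp (0.992) and Rufy3 (0.992), with 231.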

How the data were processed

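The submitters' processing notes name STAR, HTSeq and DESeq2 among their tools and mm10 as the build, with versions not given in the sources used here. For each tissue 1 deposited table holds a normalized read signal per gene and library, and the authors' log2 fold change, p-value and adjusted p-value. No row was dropped, but 22 gene names per table had been turned into dates and stayed out of the between-tissue test. Every library's deposited signal values were whole multiples of 1 step (100.0% within 0.01), so reads were recovered. The LSEC columns carry no replicate number, and LSEC library numbers are names only.

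Each tissue was fitted alone with limma 3.58.1 (R 4.3.3) on log2(normalized reads + 1), with a variance trend, no filter and Benjamini-Hochberg adjustment, and calls at an adjusted p under 0.05. The tables held normalized signal rather than counts, so count tests (edgeR 4.0.16, DESeq2 1.42.0) on recovered reads were alternatives, as were pseudocounts of 0.1 and 10, a filter at a mean of 10 normalized reads, total-read scaling, endothelial or hepatocyte reference lists, no trend, a replicate block in liver, and each library left out. The between-tissue difference was divided by the combined SE of the 2 fits. The script was tested on simulated data. Replicate pairs differed by more than counting noise (chi-square per degree of freedom 16.4 to 96.2). Exon lengths came from GENCODE M21. The strand setting of the read counting is not given, so reads of overlapping antisense genes cannot be told apart.

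The members and lists were chosen with earlier results of these data known. Most genes were named by rule: all 10 members, and per list up to 3 called genes, by smallest adjusted p, in the tissue where it is read (secreted and endothelial lists in LSEC, others in liver). Outside this rule stand the genes said to be named after their values had been seen. So do Wnt5b in liver and Wnt7a, Wnt7b and Wnt10a in LSEC. In the authors' deposited table for LSEC, Wnt2 had a log2 fold change of -1.10 and Dkk3 of -2.10, and 2539 genes had an adjusted p-value under 0.05.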

Additional observations from a re-analysis of the deposited data

Results flagged for a closer look

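The effect of the NASH diet on 3 of the 10 genes differed between whole liver and LSEC by a test of the difference itself. The same test called 11.0% of all genes. The liver minus LSEC difference in log2 fold change was 2.71 for Dkk3 (2840.4 to 3249 normalized reads on chow and 649 to 731 on NASH diet in LSEC, 478 to 642 and 653 to 1018 in liver). It was 1.47 for Wls (3771 to 4523 and 3073 to 3268 in LSEC, 537 to 630 and 1126 to 1395 in liver). It was -1.99 for Znrf3 (35.9 to 69.0 and 70.5 to 116 in LSEC, 770.4 to 966 and 418.5 to 466 in liver), a call that leaving out single LSEC libraries ended.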

How the results depend on the processing

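In LSEC, 2 genes of the 10 were called with the deposited scaling, and 1 (Dkk3) without a trend in the variance; the cause was not tested. The number of all LSEC genes called was 1319, and it was 2503 with DESeq2, 4202 relative to general endothelial genes and 750 without a trend. Leaving out each library in turn gave 124 to 1171 genes and 1 to 2 of the 10 in LSEC, 5863 to 7407 and 6 to 7 in liver, and 386 to 1930 and 2 to 3 for the difference between tissues, with fewer samples in each fit. In liver 13061 genes were called relative to hepatocyte genes, against 7691. The difference between tissues was called for 1730 genes, for 2924 with 1 limma interaction fit over 12 libraries and for 3026 with the edgeR interaction.

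Signs changed as follows. With total-read scaling, liver Rspo3, Axin2, Glul and Nkd1 were 0.021, 0.14, 0.29 and 0.070, and the tissue differences of Rspo3 and Glul 0.053 and 0.087. Relative to endothelial genes, liver Axin2 and Glul were 0.033 and 0.18 and LSEC Rspo3 and Wls 0.29 and 0.12. Relative to hepatocyte genes, liver Rspo3, Axin2, Glul, Wnt5b, Dvl3, Rnf43 and Nkd1 were 0.43, 0.55, 0.70, 0.11, 0.13, 0.14 and 0.48. Leaving out 1 library turned LSEC Tbx3 to -0.11 (chow library 1; range -0.11 to 1.998) and Glul to -0.059 (NASH library 2; range -0.059 to 0.225). LSEC Znrf3 passed relative to endothelial genes, at 1.48. Under that reference 25.0% of all LSEC genes were called higher, and the median over all genes was 0.47. Among LSEC genes outside the 10, Fzd1 and Eng lost their calls in all 6 fits with a library left out, Gata4 in 5, Wnt5a, Porcn, Fzd7, Ror1 and Dkk2 in 4, Sost, Frzb and Kit in 3, Dnase1l3 and Lyve1 in 2 and Nkd1 in 1; Wnt5a was also lost with edgeR (TMM, adjusted p = 0.0502). With the replicate block, 8 of the 10 and 7447 genes were called in liver; equal numbers did not deviate together (r = -0.0135, -0.0157 and 0.0981 over 14324 genes), so they are not taken as pairs. No paired analysis was possible in LSEC because the columns carry no replicate numbers. Relative to endothelial genes Porcn, Gata4 and Eng lost their LSEC calls, and without a trend in the variance Wnt5a, Fzd1, Ror1, Gata4 and Dkk2 did. Lgr5 and Tbx3 rest on 0 to 14 and 1 to 36 reads per LSEC library.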

Other observations

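The Wnt ligands Wnt7a, Wnt7b and Wnt10a, with few reads in LSEC, were each highest in the second NASH library. They had 32.7, 121 and 58.8 normalized reads there, against 4.83, 14.5 and 2.90 in the first NASH library and 12.1, 52.1 and 12.1 in the third. That library also had the highest sum of 6 cholangiocyte markers, 2648 RPM against 571 and 966 in the other NASH libraries and 211 to 477 on chow. None of the 3 ligands was called in LSEC, and the part of cholangiocyte RNA in these values was not tested.

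The same library held the highest LSEC value of Wnt9b among the NASH libraries (1423 normalized reads against 563 and 628) and the highest of Wnt2 (2116 against 1328 and 1243). Its general endothelial marker sum was the lowest of the 6 LSEC libraries, at 13656 RPM.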
